A study of Mus musculus with 15 samples.

Results

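The genes of GABA (gamma-aminobutyric acid) synthesis, transport, breakdown and GABA-B reception were measured in the cerebral cortex and striatum of mice without the neutral amino acid transporter ASCT1, encoded by Slc1a4. The 8 members, chosen by symbol from the 26595 genes of the table, were Gad1, Gad2, Slc32a1, Slc6a11, Slc6a13, Abat, Gabbr1 and Gabbr2, and all 8 passed the filter on low values. RNA-seq gave 15 libraries: 3 of striatum from Slc1a4 -/- animals (KO striatum), 4 of striatum from wild-type animals (WT striatum), 4 of KO cortex and 4 of WT cortex. All animals were male C57Bl/6 mice aged 5 months, the labels name no treatment, and they do not say how the allele was made or whether a cortex and a striatum library came from the same animal. Each value below is a normalized count, meaning reads per gene divided by a size factor for the library. The replicates are separate samples in the labels, which name no animals, so p-values measure the spread between these samples.

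GABA is the main inhibitory transmitter of the forebrain. It is made from glutamate by the decarboxylases that Gad1 and Gad2 encode, loaded into synaptic vesicles by the carrier of Slc32a1, removed from the extracellular space by membrane transporters, and broken down in mitochondria by the transaminase of Abat. Released GABA acts on GABA-A channels and on the slower, G protein-coupled GABA-B receptor, an obligate pair of the subunits that Gabbr1 and Gabbr2 encode. The main neurons of the striatum are themselves GABA-releasing projection neurons, whereas in cortex GABA neurons are a minority among excitatory cells.

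The genes for synthesis and vesicular loading all lie on mouse chromosome 2, in build GRCm38: Gad1 at chr2:70553072-70602014, Gad2 at chr2:22622205-22693874 and Slc32a1 at chr2:158610767-158615748, each on the plus strand. The promoters of these 3 genes are shown because their transcripts were all higher in striatum, and that of Gabbr2 because its transcript was lower there. Each line gives, from RefSeq on GRCm38.p6, the 250 bases before a RefSeq start, read 5′ to 3′ on the gene's strand, with CpG dinucleotides in capitals. The windows are chr2:22622077-22622326 for Gad2, chr2:70561879-70562128 for Gad1, chr2:158610508-158610757 for Slc32a1, and chr4:46991715-46991964 on the minus strand for Gabbr2.
Gad2: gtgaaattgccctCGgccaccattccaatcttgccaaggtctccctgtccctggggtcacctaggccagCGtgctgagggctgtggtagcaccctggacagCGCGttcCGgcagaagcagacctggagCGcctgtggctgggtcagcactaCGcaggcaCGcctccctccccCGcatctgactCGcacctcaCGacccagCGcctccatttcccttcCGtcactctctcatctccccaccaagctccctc
Gad1: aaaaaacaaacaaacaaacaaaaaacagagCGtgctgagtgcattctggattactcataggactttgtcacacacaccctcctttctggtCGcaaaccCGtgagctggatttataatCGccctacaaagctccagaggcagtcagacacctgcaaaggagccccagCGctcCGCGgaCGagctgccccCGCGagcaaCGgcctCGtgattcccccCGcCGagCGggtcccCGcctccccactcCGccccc
Slc32a1: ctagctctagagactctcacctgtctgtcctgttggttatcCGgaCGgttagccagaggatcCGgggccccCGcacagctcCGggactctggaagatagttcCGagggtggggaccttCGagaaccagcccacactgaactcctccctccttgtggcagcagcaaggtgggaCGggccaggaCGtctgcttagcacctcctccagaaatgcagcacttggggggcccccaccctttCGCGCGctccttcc
Gabbr2: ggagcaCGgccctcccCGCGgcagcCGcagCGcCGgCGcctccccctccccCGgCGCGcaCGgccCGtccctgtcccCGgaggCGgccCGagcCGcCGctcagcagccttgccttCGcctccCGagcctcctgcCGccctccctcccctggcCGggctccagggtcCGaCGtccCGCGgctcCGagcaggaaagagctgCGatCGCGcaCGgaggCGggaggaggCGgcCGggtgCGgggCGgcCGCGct

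The windows held 13 CpG in Gad2, 17 in Gad1, 12 in Slc32a1 and 37 in Gabbr2, against a median of 6 over 32851 promoter windows of the same length. Their GC content was 64.0%, 58.0%, 62.4% and 80.8% in that order, against a median of 52.4% over all windows. RefSeq gave a window for 7 of the 8 members. Among those not shown, the window of Slc6a11, also higher in striatum, held 25 CpG. The windows of Slc6a13, also lower there, held 9, 6 and 2, and that of Gabbr1 held 16. The letters TAATTA (a homeodomain core) and TGACGTCA (the cyclic AMP response element), searched on both strands, were in 4.84% and 1.55% of all windows and in no member's window. GGGCGG, the GC box, was in 32.7% of all windows and, on either strand, in those of Gad1, Gabbr2, Slc6a11, Slc6a13 and Gabbr1. A TATAAA stood on the opposite strand of the Gad1 window, at -141 from the start, and in 12.4% of all windows. These matches describe letters in the windows and do not show binding. Among the windows shown, those of Gad2 and Gabbr2 hold the start in the GENCODE annotation, 22622205 and, on the minus strand, 46991873. The whole Gad1 window lies inside its GENCODE gene, which starts at 70553072. The Slc32a1 window lies before its GENCODE gene.

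Slc1a4 itself had 158, 311 and 344 normalized counts in KO striatum, against 1237 to 1726 in WT striatum. It had 249 to 308 in KO cortex, against 1494 to 1797 in WT cortex, so every library matched its genotype label. Total counted reads ran from 22990233 to 25697792 in striatum and from 26791109 to 30276815 in cortex, and every member was covered by 52 or more reads in each library. Among the striatum libraries, KO replicate 4 and WT replicate 8 stood apart. Their summed normalized counts of 23 markers of neighbouring thalamus, septum and pallidum were 85417 and 53240, against 14567 to 26519 in the other 5. Their summed counts of 25 striatal projection neuron markers were 90780 and 172056, against 188589 to 359775. Summed counts of 20 choroid plexus markers reached 159040 in KO replicate 4 and 232162 in WT replicate 5, against 10201 to 20578 in the others. All 25 projection neuron markers had a lower mean in KO than in WT striatum, with a median log2 fold change of -0.77, although none passed the test. In these bulk samples fewer cells of a type and less RNA per cell cannot be told apart.

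The decarboxylases and the vesicular carrier were 2 to 4 times as abundant in striatum as in cortex, in KO and in WT mice alike. Gad2, whose product is largely attached to synaptic vesicles, had 24782, 22990 and 13511 normalized counts in KO striatum and 16570, 24100, 20123 and 17506 in WT striatum. In KO cortex it had 4874, 7241, 4852 and 4879, and in WT cortex 5204, 5080, 4785 and 5486. Every striatum library was above every cortex library, and the lowest was KO replicate 4. The log2 fold change of striatum over cortex was 1.88 ± 0.19 (SE, adjusted p = 4.8e-06, limma) in KO mice and 1.92 ± 0.18 (adjusted p = 8.7e-07) in WT mice.

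Gad1 encodes the decarboxylase that supplies most GABA in neurons. It had 27913, 20035 and 17067 normalized counts in KO striatum, and 26138, 26785, 24365 and 22216 in WT striatum. Its values were 9031, 11800, 10227 and 10310 in KO cortex, and 10755, 9859, 10097 and 11310 in WT cortex. The tissues did not overlap, and the log2 fold change of striatum over cortex was 1.04 ± 0.13 in KO mice (SE, limma adjusted p = 3.9e-05) and 1.24 ± 0.12 in WT mice (adjusted p = 1.8e-06). An antisense gene, Gad1os, lies on the other strand of Gad1 without sharing exons, and had 0 to 12 reads per library.

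Slc32a1 encodes the vesicular GABA and glycine carrier, a marker of inhibitory nerve endings. Its normalized counts were 6922, 6379 and 4010 in KO striatum and 6723, 7168, 6939 and 6045 in WT striatum. They were 1839, 1926, 1828 and 1888 in KO cortex, and 2162, 2051, 1950 and 2265 in WT cortex. KO striatum replicate 4 was again the lowest of the striatum libraries, and still above all of cortex. The log2 fold change of striatum over cortex was 1.59 ± 0.14 in KO mice (SE, limma adjusted p = 7.7e-07) and 1.67 ± 0.13 in WT mice (adjusted p = 1.1e-07). The antisense gene Gm14205 shares exon positions with Slc32a1 and had 0 to 8 reads per library; whether counting used strand is not stated.

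**Figure D1:**
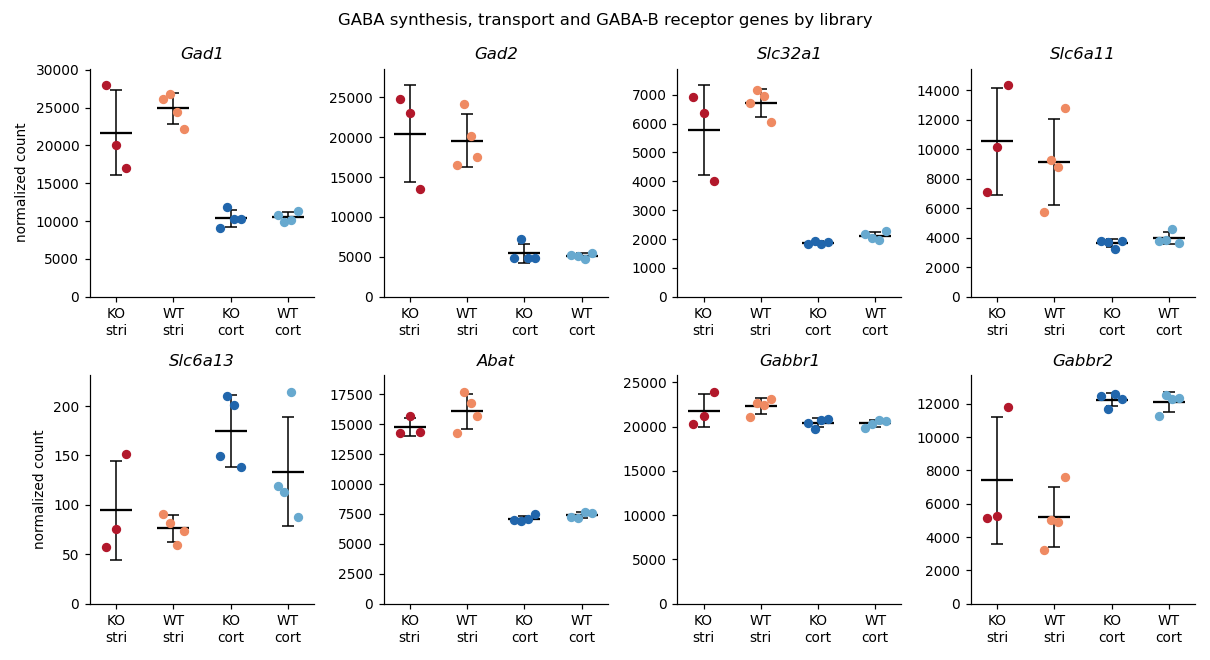
Normalized count (linear axis from 0) of each of the 8 genes in 15 libraries, as points, in KO striatum (n = 3), WT striatum (n = 4), KO cortex (n = 4) and WT cortex (n = 4); lines are means and bars SD. Gad1, Gad2, Slc32a1, Slc6a11 and Abat lie higher in every striatum library than in any cortex library, Gabbr1 lies between 19730 and 23876, and Gabbr2 and Slc6a13 have lower means in striatum.

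The plasma membrane transporters went in opposite directions between the tissues. Slc6a11 encodes a GABA transporter found mostly on astrocytes. It had 7117, 10138 and 14313 normalized counts in KO striatum and 5716, 9258, 8799 and 12813 in WT striatum. It had 3746, 3706, 3226 and 3790 in KO cortex, and 3792, 3876, 4582 and 3668 in WT cortex. Each striatum library exceeded all of cortex, and the highest 2 were KO replicate 4 and WT replicate 8. Its log2 fold change of striatum over cortex was 1.49 ± 0.23 in KO mice (SE, limma adjusted p = 0.00018) and 1.15 ± 0.21 in WT mice (adjusted p = 0.00043). The 20 astrocyte markers had a median tissue log2 fold change of 0.30 in KO and 0.19 in WT mice, with 6 higher and 2 lower called in KO, and 8 higher and 1 lower in WT. Counted in either direction, these calls were near the shares of all genes, 37.9% in KO and 50.5% in WT. By direction they leaned to higher in striatum. Of all genes, 18.4% were higher and 19.5% lower in KO, and 24.9% and 25.7% in WT. In each genotype 13 of the 20 markers lay above 0 and 7 below. Their summed counts overlapped between the tissues, at 171835 to 203589 in KO striatum and 187532 to 211862 in KO cortex. In WT mice the sums were 172773 to 212430 in striatum and 188681 to 230902 in cortex. The part of astrocytes in the Slc6a11 values was not tested. Among the astrocyte markers above 0, Slc4a4, a bicarbonate cotransporter, was higher in striatum by 0.93 in KO and 1.02 in WT mice. Agt, angiotensinogen, was higher by 3.73 and 3.40 on the log2 scale. The markers below 0 are not named here.

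Slc6a13 encodes a transporter of GABA and taurine known from the meninges and blood vessels, and was the least abundant member in every group. It had 56.9, 75.1 and 151 normalized counts in KO striatum and 91.0, 81.3, 59.5 and 73.1 in WT striatum. It had 150, 211, 201.3 and 138 in KO cortex, and 119, 113, 214 and 88.2 in WT cortex. The tissues overlapped in both genotypes. The log2 fold change of striatum over cortex was -0.98 ± 0.32 in KO mice (SE, limma adjusted p = 0.025) and -0.74 ± 0.30 in WT mice (adjusted p = 0.0497). The call in WT was made in 13 of 29 alternative settings, and without WT cortex replicate 7, the highest library, the value was -0.49 (adjusted p = 0.17). Of the 15 settings that leave out 1 library, 4 kept the WT call below 0.05. The call in KO was made in 24 of 29, and was lost without KO striatum replicate 2 (-0.68, adjusted p = 0.13) or 3 (-0.88) and without KO cortex replicate 2 (-0.89) or 3 (-0.91).

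Of 20 markers of meninges and fibroblasts, 7 were lower and 1 higher in striatum in KO mice, and 8 were lower and 1 higher in WT mice. Of all genes, 19.5% were lower in KO and 25.7% in WT, and 37.9% and 50.5% were called in either direction. Among cortex libraries their summed count was highest in KO replicate 2, WT replicate 7 and KO replicate 3, at 7518, 7078 and 6325. Those are the cortex libraries with the most Slc6a13. The other cortex libraries had sums of 3788 to 5410. In striatum, KO replicate 4 had a sum of 10007 and WT replicate 5 of 9755, against 4082 to 4438 in the others. A single marker, Igf2, had 4370 and 5234 of these, against 654 to 900 in the other striatum libraries. The same 2 libraries had the high choroid plexus sums, 159040 and 232162, and the source of the Igf2 counts was not tested. The marker Col1a1, a fibrillar collagen chain, had 128 to 217 in KO striatum, 98.7 to 196 in WT striatum, 107 to 561 in KO cortex and 118 to 217 in WT cortex. Of 20 markers of brain endothelium and pericytes, 15 lay above 0 between the tissues in KO and 19 in WT mice, with medians of 0.05 and 0.15. In KO mice 0 were called higher and 1 lower, and in WT mice 1 higher and 0 lower. Their summed count in cortex was highest in WT replicate 7 and KO replicate 2, at 19601 and 18785, and was 16771 in KO replicate 3. The part of meninges or blood vessels in the Slc6a13 values was not tested.

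Abat encodes GABA transaminase, which starts the breakdown of GABA in mitochondria of neurons and astrocytes. It had 14264, 15662 and 14394 normalized counts in KO striatum and 14253, 17672, 16796 and 15678 in WT striatum. It had 6966, 6878, 7095 and 7481 in KO cortex, and 7228, 7169, 7665 and 7561 in WT cortex. The tissues did not overlap, and its standard error was the smallest of the 7 genes called. The log2 fold change of striatum over cortex was 1.06 ± 0.07 in KO mice (SE, limma adjusted p = 1.0e-07) and 1.116 ± 0.066 in WT mice (adjusted p = 1.2e-08).

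The GABA-B subunits differed in how they varied between tissues. Gabbr1, the subunit that binds GABA, had 20298, 21214 and 23876 normalized counts in KO striatum and 21098, 22706, 22417 and 23110 in WT striatum. It had 20396, 19730, 20791 and 20834 in KO cortex, and 19838, 20357, 20754 and 20644 in WT cortex. Its log2 fold change of striatum over cortex was 0.09 in KO mice, with a 95% interval of -0.05 to 0.23 and an adjusted p of 0.30 (limma). In WT mice it was 0.13 (0.00 to 0.26, adjusted p = 0.085), the tissues did not overlap, and 6 of 29 alternative settings called it.

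Gabbr2 encodes the subunit that couples to G proteins. It had 5155, 5261 and 11803 normalized counts in KO striatum and 3253, 5037, 4903 and 7630 in WT striatum. It had 12479, 11672, 12573 and 12298 in KO cortex, and 11245, 12556, 12267 and 12352 in WT cortex. KO striatum replicate 4 reached the cortical range, the other 6 striatum libraries did not, and WT replicate 8 was the highest of those. The log2 fold change of striatum over cortex was -0.84 ± 0.26 in KO mice (SE, limma adjusted p = 0.021) and -1.28 ± 0.24 in WT mice (adjusted p = 0.00054). The KO call was lost without KO striatum replicate 2 (-0.64, adjusted p = 0.099) and without replicate 3 (-0.65, adjusted p = 0.096), and in 1 more of 29 alternative settings. Without KO striatum replicate 4 and WT striatum replicate 8 the values were -1.23 in KO and -1.49 in WT mice.

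**Figure D2:**
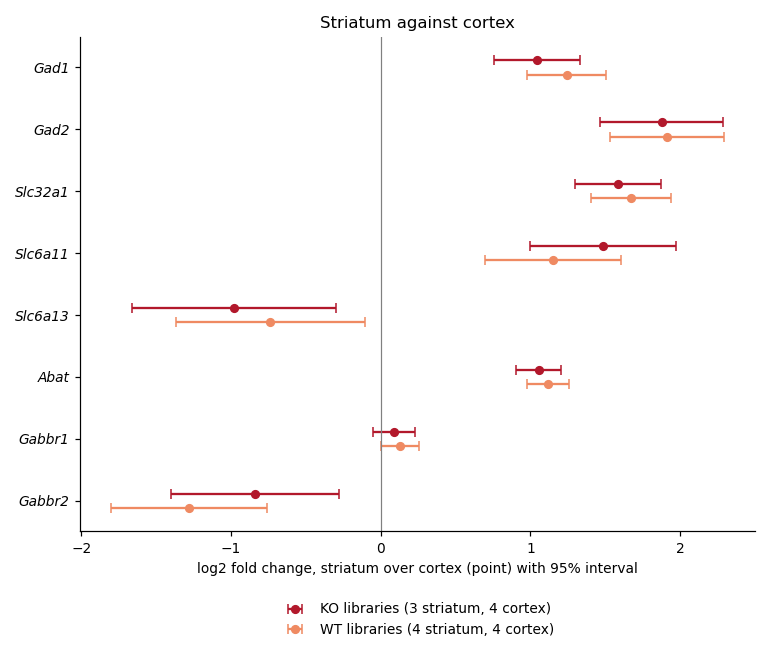
Log2 fold change of striatum over cortex (points, with 95% intervals) for each gene in KO mice (3 striatum and 4 cortex libraries) and in WT mice (4 and 4). In both genotypes 5 genes lie above 0 and Slc6a13 and Gabbr2 below 0, while Gabbr1 lies between 0.09 and 0.13.

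Over the members, 7 of 8 differed between the tissues in KO mice, 5 higher and 2 lower in striatum, where 37.9% of the 17030 genes tested were called (18.4% higher and 19.5% lower). In WT mice 7 of 8 were called, with the same 5 higher and 2 lower, against 50.5% of all genes (24.9% higher and 25.7% lower). The median log2 fold change of the 8 was 1.05 in KO and 1.13 in WT mice, against 0.002 and 0.006 over all genes. The libraries of the tissues did not overlap for 5 of 8 members in KO mice, against 41.5% of all genes, and for 7 of 8 in WT mice, against 47.3%. The fold changes of the KO and WT comparisons share no library, but their tests share 1 spread per gene over all 15 libraries. Without KO replicate 4 and WT replicate 8, Gad2 was at 2.15 in KO and 1.96 in WT mice, Gad1 at 1.20 and 1.30, Slc32a1 at 1.83 and 1.72, Slc6a11 at 1.23 and 0.97 and Abat at 1.07 and 1.13.

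Markers of the neurons that make GABA were set beside these values. Of 25 projection neuron markers, 24 were called higher in striatum than in cortex in KO mice and all 25 in WT mice, with medians of 2.46 and 2.99 on the log2 scale. Interneuron markers moved both ways: of 19 tested, 6 were higher and 6 lower in KO striatum than in KO cortex, and 8 higher and 5 lower in WT. Over all genes tested, 18.4% were called higher and 19.5% lower in KO mice, and 24.9% and 25.7% in WT mice. Nkx2-1, a transcription factor of ventral forebrain interneurons, had 215 ± 78.8 normalized counts in KO striatum and 11.7 ± 3.3 in KO cortex (SD, n = 3 and 4). Vip, a peptide of cortical interneurons, had 115 ± 69.0 in KO striatum and 1228 ± 196 in KO cortex. The summed interneuron markers were 22676 to 25749 in KO striatum and 21677 to 26466 in WT striatum, against 25819 to 29312 in KO cortex and 28404 to 31816 in WT cortex.

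To compare levels between genes, normalized counts were divided by the length of each gene's merged exons. That length joins all annotated transcripts, such as 8 for Gad1, 11 for Gabbr1, 2 for Gad2 and 1 for Slc32a1. Which transcripts were expressed was not tested, and levels and ratios between genes depend on it. Per kb, Gad2 had the highest mean in striatum with 3476 ± 1031 in KO and 3331 ± 574 in WT (SD, n = 3 and 4), and Gad1 had 2837 ± 734 and 3256 ± 268. Gabbr1 had 2807 ± 239 in KO striatum and 2876 ± 112 in WT striatum. The ranges of mean ± SD of Gad2 and Gad1 overlapped in each genotype, as did those of the 3 genes in KO striatum. Within libraries, Gad1 over Gad2 was 0.87, 0.67 and 0.97 in KO striatum. It was 1.21, 0.85, 0.93 and 0.98 in WT striatum. In cortex the order was led by Gabbr1, with 2632 ± 65.8 per kb in KO and 2627 ± 52.7 in WT (SD, n = 4 each), and Gabbr2, with 1833 ± 60.6 and 1810 ± 87.6. Gad1 was the third there, at 1354 ± 148 and 1375 ± 86.0. Slc6a13 was the last in all 4 groups, at 32.5 ± 17.2 in KO striatum, 26.2 ± 4.6 in WT striatum, 60.2 ± 12.5 in KO cortex and 46.0 ± 19.01 in WT cortex.

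Ratios within a library showed the unequal change inside each functional group. Gad1 over Gad2, per kb, was 0.84 ± 0.15 in KO striatum and 0.99 ± 0.15 in WT striatum, and 1.48 ± 0.18 in KO cortex and 1.57 ± 0.06 in WT cortex (SD, n = 3, 4, 4 and 4). No striatum library, at 0.67 to 1.21, reached the cortical range of 1.25 to 1.63. Gabbr1 over Gabbr2 was 3.39, 3.47 and 1.74 in KO striatum and 5.59, 3.88, 3.94 and 2.61 in WT striatum, against 1.41 to 1.46 in KO cortex and 1.40 to 1.52 in WT cortex. The ratio was lowest in striatum replicates KO 4 and WT 8, and still above every cortex library. Slc6a11 over Slc6a13 was 54.4 to 77.6 in KO striatum and 36.1 to 101 in WT striatum, against 9.2 to 15.8 in KO cortex and 12.3 to 23.9 in WT cortex. These ratios are given without a test.

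**Figure D3:**
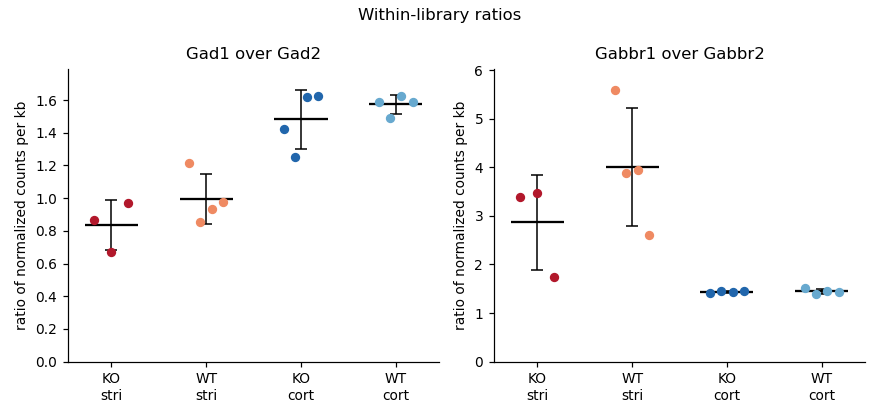
Ratio of normalized counts per kb of Gad1 over Gad2 (left) and of Gabbr1 over Gabbr2 (right) in each library (points) of KO striatum, WT striatum, KO cortex and WT cortex, with group means and SD. Gad1 over Gad2 is below 1.25 in every striatum library, and Gabbr1 over Gabbr2 is above 1.7 in each of them and at most 1.52 in cortex.

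None of the 8 genes passed the test between KO and WT in either tissue. In KO against WT cortex 0 of 8 were called, where 0.00587% of all genes tested were called, which is 1 gene, and 0 of 8 had an unadjusted p below 0.05 by limma, against 427 of all genes. In KO against WT striatum 0 of 8 were called, where 0.0763% of all genes, or 13, were called (0.0705% higher), and 0 of 8 had an unadjusted p below 0.05 against 2598 of all genes. The edgeR and DESeq2 fits on recovered reads also called 0 of 8 in both tissues. A test of the difference between the KO effects in striatum and cortex called 0 of 8 as well, where 0.00587% of all genes were called.

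Gad2 averaged 20428 ± 6057 in KO striatum and 19575 ± 3371 in WT striatum (SD, n = 3 and 4), with a log2 fold change of 0.03 and a 95% interval of -0.38 to 0.44 (limma adjusted p = 0.96). Gad1 averaged 21671 ± 5605 in KO and 24876 ± 2047 in WT striatum, at -0.23 (-0.51 to 0.06, adjusted p = 0.44). Of its KO values, 20035 and 17067 lay below all 4 WT values and 27913 above them, and leaving out 1 library at a time gave -0.42 to -0.07. Slc32a1 averaged 5770 ± 1549 in KO and 6719 ± 485 in WT striatum, at -0.26 (-0.55 to 0.03, adjusted p = 0.38). KO replicate 4 alone lay below the WT range for Slc32a1. The value was -0.01 without it, -0.41 without KO replicate 2, and -0.06 without KO replicate 4 and WT replicate 8.

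Slc6a11 averaged 10523 ± 3614 in KO and 9147 ± 2907 in WT striatum, a log2 fold change of 0.20 (-0.29 to 0.69, limma adjusted p = 0.71). Slc6a13 averaged 94.5 ± 50.1 in KO and 76.2 ± 13.3 in WT striatum, at 0.20 (-0.48 to 0.88, adjusted p = 0.81), and at -0.21 without KO replicate 4 and WT replicate 8. Abat averaged 14773 ± 772 in KO and 16100 ± 1477 in WT striatum, at -0.12 (-0.27 to 0.03, adjusted p = 0.43). Gabbr1 averaged 21796 ± 1858 in KO and 22333 ± 871 in WT striatum, at -0.04 (-0.18 to 0.10, adjusted p = 0.82). The intervals of Abat and Gabbr1 were the narrowest of the members, and that of Slc6a13 the widest.

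Gabbr2 had the largest KO difference of the members in striatum, and KO replicate 4 lay far above the other 2 KO libraries. It averaged 7406 ± 3808 in KO and 5206 ± 1808 in WT striatum, a log2 fold change of 0.46 (-0.10 to 1.02, limma adjusted p = 0.42). With 1 library left out, the value ran from 0.07 without KO replicate 4 to 0.66 without KO replicate 2 or WT replicate 8. Without KO replicate 4 and WT replicate 8 it was 0.27 (adjusted p = 0.24), and without KO replicate 4 and WT replicate 5 it was -0.14 (adjusted p = 0.64). Those 2 choices of libraries to leave out gave 861 and 341 called genes in all, and 0 of 8 members in each. Of 19 cortical excitatory neuron markers, 15 had a higher mean log2 value in KO than in WT striatum, with a median log2 fold change of 0.90, and 1 was called. That was Neurod2, a transcription factor, with 309 ± 151 normalized counts in KO and 62.3 ± 34.6 in WT striatum (SD, n = 3 and 4), at 2.30 (limma adjusted p = 0.030). The summed counts of these markers were 47274 to 63435 in KO and 41860 to 52419 in WT striatum, and their mean log2 level was 8.84 to 9.40 in KO and 7.85 to 8.57 in WT. Their part in the Gabbr2 value, which is itself higher in cortex, was not tested.

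**Figure D4:**
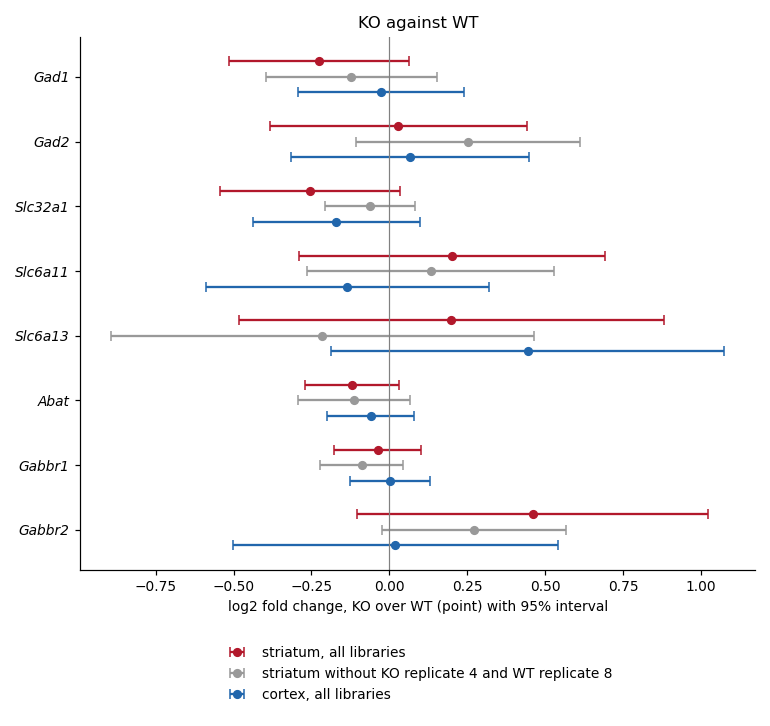
Log2 fold change of KO over WT (points, with 95% intervals) for each gene in striatum with all 7 libraries, in striatum without KO replicate 4 and WT replicate 8, and in cortex with all 8 libraries. Every interval crosses 0, and the widest are those of Slc6a13.

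Gad1 averaged 10342 ± 1134 in KO and 10505 ± 657 in WT cortex (SD, n = 4 each), a log2 fold change of -0.03 (-0.29 to 0.24, limma adjusted p = 0.9998). Gad2 averaged 5462 ± 1186 in KO and 5139 ± 291 in WT cortex, at 0.07 (-0.31 to 0.45), with KO replicate 2 far above the other 3. Slc6a11 averaged 3617 ± 263 in KO and 3979 ± 411 in WT cortex, at -0.14 (-0.59 to 0.32). Abat averaged 7105 ± 266 in KO and 7406 ± 244 in WT cortex, at -0.06 (-0.20 to 0.08). Gabbr1 averaged 20438 ± 511 in KO and 20398 ± 409 in WT cortex, at 0.00 (-0.13 to 0.13), and Gabbr2 12255 ± 405 and 12105 ± 586, at 0.02 (-0.50 to 0.54). The intervals use 1 spread per gene over all 15 libraries, so they carry the striatum spread too. For Gabbr2 the SD was 3808 in KO and 1808 in WT striatum. Without striatum replicates KO 4 and WT 8, its interval in cortex was -0.21 to 0.25. Slc6a13 averaged 175 ± 36.3 in KO and 133 ± 55.2 in WT cortex, at 0.44 (-0.19 to 1.07). Of the 20 meningeal and fibroblast markers, 19 had a mean log2 value above WT in KO cortex, with a median of 0.32, and of 20 choroid plexus markers all 20, with a median of 1.25. None of these markers passed the test, and their part in the Slc6a13 value was not tested.

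Slc32a1 was the member whose KO and WT cortex libraries did not overlap, which was true of 4.02% of all genes tested. The 4 KO values, 1828 to 1926, lay below the 4 WT values, 1950 to 2265. The means were 1870 ± 45.5 and 2107 ± 136 (SD, n = 4 each), a log2 fold change of -0.17 with a 95% interval of -0.44 to 0.10. That interval carries the striatum spread too, and the SD was 1549 in KO striatum. Without striatum replicates KO 4 and WT 8 the cortex interval was -0.28 to -0.06, around the same -0.17. Without striatum replicates KO 4 and WT 5 it was -0.30 to -0.04. Both of these intervals excluded 0, but the gene was not called in either setting. A two-sided exact permutation test of this gene alone gave p = 0.029, the smallest that 4 against 4 allows, and the limma fit gave an adjusted p of 0.9998. It was called in 0 of 28 alternative settings, with adjusted p from 0.38 to 1. In striatum the KO and WT libraries of all 8 genes overlapped, where those of 8.07% of all genes did not.

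Within striatum, the members split by how they followed the libraries rich in neighbouring-region markers. KO replicate 4 and WT replicate 8 had the highest Slc6a11 (14313 and 12813, against 5716 to 10138 in the other 5) and the highest Gabbr2 (11803 and 7630, against 3253 to 5261). They had the lowest Slc32a1 (4010 and 6045, against 6379 to 7168). The lowest Gad2, 13511, belonged to KO replicate 4, while WT replicate 5 (16570) lay below WT replicate 8 (17506). The marker Tcf7l2, a transcription factor of thalamic neurons, had 4806 and 2796 normalized counts in those 2 libraries and 518 to 1279 in the other 5. The part of neighbouring tissue in these members' values was not tested.

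**Figure D5:**
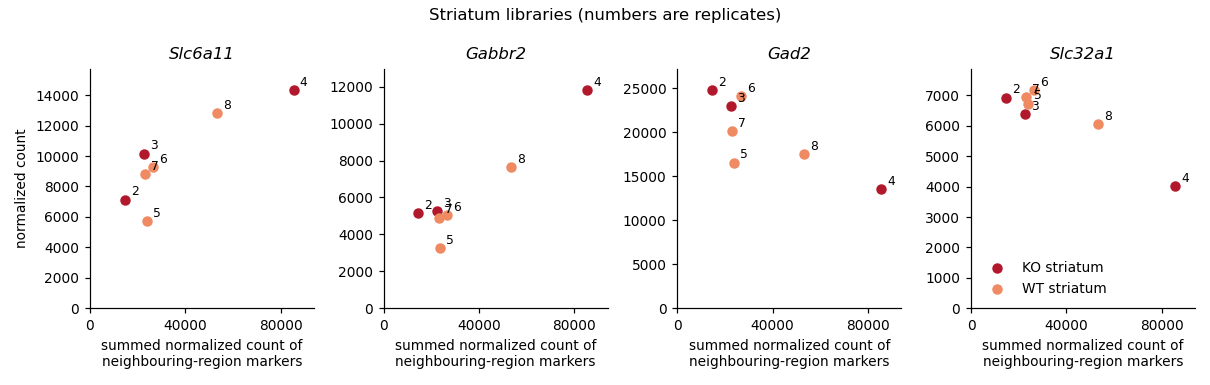
Normalized count of Slc6a11, Gabbr2, Gad2 and Slc32a1 in the 7 striatum libraries (points, numbered by replicate) against the summed normalized count of 23 markers of neighbouring regions. KO replicate 4 (sum 85417) and WT replicate 8 (sum 53240) lie to the right, with the highest Slc6a11 and Gabbr2 and the lowest Slc32a1.

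The other enzymes and carriers that supply or clear GABA showed smaller tissue differences. Of 14 genes of GABA metabolism and further transport, 7 were higher and 2 lower in striatum in KO mice, and likewise 7 and 2 in WT mice. Of all genes, 18.4% were higher and 19.5% lower in KO mice, and 24.9% and 25.7% in WT mice. The medians of the 14 were 0.33 in KO and 0.27 in WT mice on the log2 scale. Gls2, which makes glutamate from glutamine, averaged 454 ± 56.6 in KO striatum and 725 ± 101 in KO cortex (SD, n = 3 and 4), a log2 fold change of -0.67 (limma adjusted p = 0.00051). In WT mice it averaged 405 ± 46.5 in striatum and 769 ± 41.4 in cortex (SD, n = 4 each), at -0.93 (adjusted p = 9.1e-06). Maob, monoamine oxidase B, which takes part in making GABA from putrescine in astrocytes, was higher by 0.55 in KO (adjusted p = 0.030) and 0.59 in WT mice (adjusted p = 0.011). Aldh9a1, an aldehyde dehydrogenase of the same route, was higher by 0.56 in KO mice (adjusted p = 0.00012). Pdxk, the kinase that makes the vitamin B6 cofactor of the decarboxylases, was higher by 0.49 in WT mice (adjusted p = 0.00058).

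None of these 14 was called in KO against WT. In striatum, the smallest p belonged to Slc38a5, a glutamine and serine carrier, which averaged 110 ± 34.5 in KO and 62.0 ± 14.2 in WT striatum, a log2 fold change of 0.79 (limma adjusted p = 0.23). In cortex it averaged 81.2 ± 21.2 in KO and 52.4 ± 13.7 in WT (adjusted p = 0.9998).

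The partners and effectors of the GABA-B receptor went in both directions between tissues. Of 19 tested, 5 were higher and 7 lower in striatum in KO mice, and 7 higher and 9 lower in WT mice, where 37.9% and 50.5% of all genes were called. The medians were -0.11 and -0.14 on the log2 scale. The potassium channel subunits that the receptor opens went both ways. Kcnj6 averaged 289 ± 55.9 normalized counts in KO striatum and 941 ± 38.0 in KO cortex (SD, n = 3 and 4), a log2 fold change of -1.72 (limma adjusted p = 0.00055). In WT mice it averaged 125 ± 52.7 in striatum and 863 ± 110 in cortex, at -2.92 (adjusted p = 1.4e-06). Kcnj9 was at -1.43 in KO (adjusted p = 0.00048) and -1.63 in WT mice (adjusted p = 4.8e-05). Kcnj5, at 130 ± 56.1 in KO striatum and 13.04 ± 3.16 in KO cortex, was higher by 3.16 (adjusted p = 0.00040), and by 1.75 in WT mice (adjusted p = 0.0094).

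Among the auxiliary KCTD subunits, which shape the speed of the receptor's response, Kctd8 was higher in striatum by 1.39 in WT mice (adjusted p = 1.5e-07, limma), and Kctd16 was at -1.19 in KO mice (adjusted p = 0.00083). In KO against WT, 0 of 19 were called in either tissue. The smallest p values in striatum were those of Kctd8, with 457 ± 56.6 in KO and 671 ± 70.6 in WT striatum (-0.56, adjusted p = 0.12), and of Rgs4, a brake on G protein signalling, with 11064 ± 1954 and 17986 ± 4084 (-0.69, adjusted p = 0.12). In cortex they were Kctd12, with 2855 ± 404 in KO and 2476 ± 130 in WT, and Kctd8, with 225 ± 25.6 and 254 ± 20.45 (SD, n = 4 each, adjusted p = 0.9998 for both).

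The genes whose levels followed each member most closely were found by Pearson correlation over the 15 libraries after each tissue's mean was subtracted, among 12963 genes. These values describe libraries that share tissue composition, and they are given with the value over 13 libraries, without striatum replicates KO 4 and WT 8. Gad2 was nearest to Fndc9 (0.93, and 0.88 over 13), Nudt11 (0.92, 0.87) and Nos1 (0.92, 0.88), the nitric oxide synthase of an interneuron type. Gad1 was nearest to Arf1 (0.92, 0.85), Ncbp1 (0.91, 0.85) and Klhl2 (0.90, 0.79). Slc32a1 was nearest to Asic1 (0.95, 0.74), Dclk3 (0.94, 0.70) and Pdyn (0.92, 0.46), the last a neuropeptide gene of striatal projection neurons.

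Slc6a11 was nearest to Cib2 (0.95, and 0.88 over 13 libraries), Slc25a18 (0.91, 0.88), a mitochondrial glutamate carrier, and Ano5 (0.91, 0.82). Slc6a13 was nearest to Fmod (0.95, 0.96), a matrix proteoglycan on the meningeal marker list, and to Arhgap29 (0.90, 0.85). Abat was nearest to Dtna (0.84, 0.86), Slc2a5 (0.84, 0.86) and Zeb1 (0.84, 0.83). Gabbr1 was nearest to Acsl6 (0.94, 0.91), Sptbn1 (0.92, 0.88) and Grid2ip (0.91, 0.85). Gabbr2 was nearest to Sestd1 (0.97, 0.89), Apba1 (0.97, 0.94) and Tmem25 (0.97, 0.82).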

How the data were processed

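RNA-seq of 15 libraries was analysed. Per the submitters' processing notes, whose order and roles are not given, the tools were FastQC 0.11.5, cutadapt 1.1, TopHat2 2.1.1, HTSeq 0.6.0 and DESeq2 1.12.4, with build GRCm38. The deposited values are normalized signal per gene: in each library 100% of values were whole multiples of 1 step within 0.001, as read counts divided by 1 size factor per library would be, and whole reads were recovered from them.

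The main test was limma 3.58.1 in R 4.3.3 with a variance trend on log2(normalized count + 1), 1 mean per tissue and genotype over all 15 libraries, for the 17030 genes with a value of at least 10 in at least 3 libraries. Calls were made at a Benjamini-Hochberg adjusted p below 0.05 over all genes tested. Fold changes on this scale understate low genes. Alternatives used edgeR 4.0.16, DESeq2 1.42.0 and voom on recovered reads, other pseudocounts, filters, scalings and sample weights, and left out libraries. The scripts were tested on simulated data. Gene positions and lengths are from GENCODE M21, which matched 98.95% of gene identifiers. Same-numbered cortex and striatum libraries were not treated as paired.

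The text names all 8 members; from each list, up to 4 called genes with the largest change or, where none was called, up to 2 with the smallest p; and 3 genes nearest to each member among those with a mean of at least 50. Some genes that this rule selects are not reported here. Tcf7l2, Col1a1 and Igf2 were named as examples after their values were seen. The members and lists were chosen with earlier results of these data known; Slc13a4 is on both the meningeal and choroid lists, and Calb2 on both the interneuron and neighbouring-region lists. Depth was 22990233 to 30276815 counted reads per library; Slc6a13 had 52 to 234 of them, so its counting error is the largest of the members, and the others had 2024 or more.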

Additional observations from a re-analysis of the deposited data

Results flagged for a closer look

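Gad2 in KO cortex replicate 2 was 7241 normalized counts, far above the other 3 KO cortex libraries at 4852 to 4879. The gap to its nearest neighbour was 0.99 of the group's range, above Dixon's critical value of 0.829 for 4 samples. Without it the Gad2 log2 fold change of KO over WT cortex was -0.08 in place of 0.07. The same library had the highest Gad1 of the KO cortex group, 11800. Slc6a11 in KO cortex replicate 3 was 3226 normalized counts, below the other 3 at 3706 to 3790, with a gap of 0.85 of the range. These were 2 flags in 24 groups of 4 libraries, and chance flags about 1 in 20 groups.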

How the results depend on the processing

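Members called stayed at 0 of 8 in KO against WT cortex, KO against WT striatum and the difference of the KO effects under all 28 alternatives, at 5 to 7 in KO striatum against KO cortex and at 6 to 8 in WT under all 29. Gad1, Gad2, Slc32a1, Slc6a11 and Abat were called in both tissue comparisons under every alternative run; calls of Slc6a13, Gabbr1 in WT and Gabbr2 in KO changed under some settings.

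Uncalled KO differences changed sign as follows, on the log2 scale; the cause was not tested. With equal library totals: Gabbr1 0.012 in striatum, and differences of the KO effects of 0.0063 for Gabbr1 and 0.0076 for Gad2. With sample weights: Gad2 -0.0034 in cortex, Slc6a13 -0.080 and Slc6a11 -0.083 in striatum, and differences of 0.12 for Gad2 and 0.070 for Slc32a1. Gabbr1 in cortex was -0.00097 with edgeR and -0.0012 with voom. Without KO striatum replicate 4 and WT striatum replicate 8: Slc6a13 -0.21, and differences of 0.19 for Gad2 and 0.11 for Slc32a1. Without KO striatum replicate 4 and WT striatum replicate 5: Slc6a13 -0.11, Slc6a11 -0.26 and Gabbr2 -0.14, and differences of 0.16 for Gad2, -0.12 for Slc6a11, 0.16 for Slc32a1 and -0.16 for Gabbr2.

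With 1 library left out at a time, the values that changed sign ran in cortex from -0.093 to 0.036 for Gad1, -0.076 to 0.12 for Gad2, -0.011 to 0.019 for Gabbr1 and -0.016 to 0.042 for Gabbr2. In striatum they ran from -0.14 to 0.30 for Gad2, -0.11 to 0.012 for Gabbr1, -0.20 to 0.50 for Slc6a13 and -0.049 to 0.45 for Slc6a11. Differences ran from -0.20 to 0.23 for Gad2, -0.24 to 0.16 for Slc32a1, -0.11 to 0.0093 for Gabbr1 and -0.64 to 0.053 for Slc6a13. Others kept their sign and moved by over 1.5 times, among them in striatum Gad1 (-0.42 to -0.069), Slc32a1 (-0.41 to -0.013), Gabbr2 (0.066 to 0.66) and Abat (-0.18 to -0.074), and in cortex Slc6a13 (0.27 to 0.70).

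Genes called in KO against WT striatum were 13, against 320 with DESeq2, 35 with sample weights, 25 with equal totals, 22 with no filter, 3 with voom, 0 with the striatum libraries alone (1183 with an unadjusted p below 0.05), 516 without KO striatum replicate 4, 187 without WT striatum replicate 8, 4 to 21 without each other library, 861 without both and 341 without KO replicate 4 and WT replicate 5. The edgeR test on recovered reads called 17 there, 1 in cortex, 1 for the difference, 6523 for the tissues in KO and 8640 in WT. In cortex they were 1, against 3 with DESeq2 and 2 with sample weights. For the difference they were 1, against 15 with DESeq2, 4 with sample weights, 1 to 8 with 1 library left out, and 26 and 19 without those pairs.

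The shared numbers gave correlations of deviations from 0.00 to 0.14 over 7 pairs, and 5 of 7 libraries correlated best with their own number. With the replicate block, 3473 genes were called in KO striatum against KO cortex (6451 without it) and 8426 in WT (8601). Members called were then 5 in KO and 6 in WT: Gabbr2 in KO (-0.83, adjusted p = 0.071), Slc6a13 in KO (-1.05, 0.12) and Slc6a13 in WT (-0.74, 0.0502) were not called. With it as a random effect, 1 gene was called for the difference.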
